A study of Mus musculus with 19 samples.

Results

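The CREB and cAMP response genes described here were 9 genes chosen by symbol from the 53558 genes listed for each library: the transcription factor genes *Creb1* and *Crem*, the orphan nuclear receptor genes *Nr4a1*, *Nr4a2* and *Nr4a3*, the cAMP phosphodiesterase genes *Pde4b* and *Pde4d*, the coactivator gene *Ppargc1a* and the activin subunit gene *Inhba*. All 9 passed the filter on low counts, which left 13986 genes for testing. *Pde4b* was higher in *Lkb1*-targeted than in sgInert tumors and was lower again in C/ebp-targeted tumors, and *Ppargc1a* was lower in C/ebp-targeted than in *Lkb1*-targeted tumors. The other 7 genes did not pass the test in any of the 3 comparisons with all 19 libraries.

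Cyclic AMP activates protein kinase A, which phosphorylates the transcription factor CREB and so lets it recruit histone acetyltransferases to genes with a cAMP response element. CREB also needs the CRTC coactivators, which the salt-inducible kinases (SIKs) hold in the cytoplasm, and the SIKs are active only when LKB1 has phosphorylated them. Many CREB target genes act back on the pathway, among them the PDE4 phosphodiesterases, which degrade cAMP, and *Crem*, which encodes activators and repressors related to CREB. Comparing *Lkb1*-targeted with sgInert tumors therefore addresses whether these genes move when the kinase upstream of the SIKs is targeted.

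Neoplastic cells were sorted from lung tumors of mice with the R26LSL-tdTomato and H11LSL-Cas9 alleles 17 weeks after a lentivirus with Cre and sgRNAs was delivered to the airways. The cells of every group, controls included, thus carried the tdTomato reporter and Cas9, both switched on by Cre in the transduced cells only. The 7 sgInert libraries came from tumors with the inactive guides sgNeo1, sgNT and sgNeo2, the 5 sgLkb1 libraries from tumors with a guide against *Lkb1* (listed as *Stk11*), and the 7 sgCebpa/b/d libraries from tumors with guides against *Cebpa*, *Cebpb* and *Cebpd*. Editing was somatic, so cells that kept a working allele could not be told from edited cells. Per the study's methods, mice of both sexes were young adults at tumor initiation. *Stk11* read between 19.5 and 22.9 CPM (counts scaled by library size) in sgInert and between 7.53 and 12.5 CPM in sgLkb1 libraries, a log2 fold change of -1.24 (SE 0.17, edgeR adjusted p = 1.07e-04).

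Libraries held 2760722 to 9944131 expected counts (median 6028918). Titles carried a number with the prefix MT in 10 libraries, a number with the prefix ZR in 4, all of them sgInert, and no number in 5, of which 3 were sgCebpa/b/d and 2 sgLkb1. Read as animals, the numbers put 7 libraries on 3 animals, and the MT libraries on 2 animals in each group, so that p-values over libraries measure a spread that is partly within animals. All 5 sgLkb1 libraries were female, and the 3 male sgCebpa/b/d libraries were the 3 without a number, so sex and title prefix cannot be told apart in that group. The alveolar epithelial markers were high throughout (*Sftpc* 9638 to 17448 CPM), whereas the 8 fibroblast markers summed to 13.7 to 179 CPM in sgInert, 108 to 320 CPM in sgLkb1 and 71.9 to 301 CPM in sgCebpa/b/d libraries. Markers of endothelial cells, which the sort gated out by CD31, summed to 9.55 to 49.0, 47.6 to 193 and 14.5 to 255 CPM. In sorted bulk samples of this kind, fewer cells that express a gene and less RNA per cell cannot be told apart.

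RefSeq promoter windows of GRCm38.p6, 250 bases before to 50 after an annotated start, were matched for 8 of the 9 genes, 11 windows in all with 4 of them for *Pde4b*. The full cAMP response element TGACGTCA was in none of these 11 windows, against 1.79% of 32851 windows of the same length. Its core, TGACG on either strand (CGTCA when read on the printed strand), was in 5 of the 11 windows, against 20.8% of all windows. The 5 windows with the core are shown because 4 copies in 1 window, as in each *Nr4a* gene, were in 0.231% of all windows, and because *Pde4b* and *Ppargc1a* are the genes that passed a test. Sequences run 5′ to 3′ on the gene's strand, with the core in capitals.
*Nr4a1* (chr15:101266596-101266895, plus strand): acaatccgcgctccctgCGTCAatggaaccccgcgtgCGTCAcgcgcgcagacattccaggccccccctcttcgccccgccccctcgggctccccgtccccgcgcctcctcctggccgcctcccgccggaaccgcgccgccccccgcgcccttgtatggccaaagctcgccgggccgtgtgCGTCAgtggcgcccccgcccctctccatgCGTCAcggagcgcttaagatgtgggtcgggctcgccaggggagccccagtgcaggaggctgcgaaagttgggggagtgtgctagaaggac
*Nr4a2* (chr2:57123954-57124253, minus strand): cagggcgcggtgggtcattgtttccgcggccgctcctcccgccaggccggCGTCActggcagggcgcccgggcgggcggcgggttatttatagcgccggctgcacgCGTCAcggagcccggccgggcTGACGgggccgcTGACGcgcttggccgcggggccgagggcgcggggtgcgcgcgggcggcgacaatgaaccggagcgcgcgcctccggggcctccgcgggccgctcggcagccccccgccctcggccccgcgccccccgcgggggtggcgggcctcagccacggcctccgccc
*Nr4a3* (chr4:48045055-48045354, plus strand): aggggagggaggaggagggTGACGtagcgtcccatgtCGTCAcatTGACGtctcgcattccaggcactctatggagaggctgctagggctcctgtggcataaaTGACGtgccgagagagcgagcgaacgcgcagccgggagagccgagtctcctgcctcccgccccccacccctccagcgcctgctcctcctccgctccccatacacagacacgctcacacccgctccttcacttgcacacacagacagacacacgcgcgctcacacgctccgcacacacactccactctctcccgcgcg
*Pde4b*, the most upstream of its 4 starts (chr4:102421305-102421604, plus strand): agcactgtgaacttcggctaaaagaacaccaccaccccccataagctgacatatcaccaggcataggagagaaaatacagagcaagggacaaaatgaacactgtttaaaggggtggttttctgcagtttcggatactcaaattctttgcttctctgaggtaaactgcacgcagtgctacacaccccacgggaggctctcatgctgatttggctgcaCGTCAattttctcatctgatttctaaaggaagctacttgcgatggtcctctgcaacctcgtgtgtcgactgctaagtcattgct
*Ppargc1a* (chr5:51567676-51567975, minus strand): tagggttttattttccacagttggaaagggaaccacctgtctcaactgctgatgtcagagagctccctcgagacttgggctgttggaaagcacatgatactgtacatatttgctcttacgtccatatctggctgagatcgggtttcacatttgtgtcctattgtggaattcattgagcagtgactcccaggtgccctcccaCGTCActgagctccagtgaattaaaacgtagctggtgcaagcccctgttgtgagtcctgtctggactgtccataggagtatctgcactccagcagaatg
The copies began 40, 69, 213 and 233 bases before the start of *Nr4a1*, 111, 123, 144 and 200 before that of *Nr4a2*, and 147, 205, 213 and 231 before that of *Nr4a3*. *Pde4b* and *Ppargc1a* each held 1 copy, 34 and 49 bases before the start. The windows of *Creb1*, *Pde4d* and *Inhba* and the other 3 of *Pde4b* held no copy. These matches describe letters only, not bound sites.

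Per transcript length, *Nr4a1* was the most abundant of the 9 genes in each group, with a mean of 121.5 ± 62.5 TPM (transcript abundance scaled by length, SD, n = 7) in sgInert, 190.1 ± 12.8 (n = 5) in sgLkb1 and 178 ± 35.2 (n = 7) in sgCebpa/b/d libraries. *Pde4d*, *Nr4a2*, *Nr4a3*, *Crem* and *Creb1* followed in sgInert libraries between 42.3 and 31.2 mean TPM, and neighbours in that order swapped places in 2 or more of the 7 libraries. *Pde4b* and *Ppargc1a* came next there, at 11.8 ± 7.86 and 10.9 ± 8.55 TPM, and *Pde4b* was above *Ppargc1a* in 5 of 7 libraries. In sgLkb1 libraries *Pde4b* stood at 43.9 ± 11.4 TPM, above *Creb1* in 4 of 5 libraries and below *Crem* in 3 of 5, and *Ppargc1a* stood at 16.3 ± 3.96 TPM. *Pde4b* was at 16.7 ± 6.20 and *Ppargc1a* at 5.12 ± 1.78 TPM in sgCebpa/b/d libraries. *Inhba* was the least abundant in each group (0.646 ± 0.858, 1.75 ± 0.797 and 2.79 ± 2.58 TPM).

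**Figure D1:**
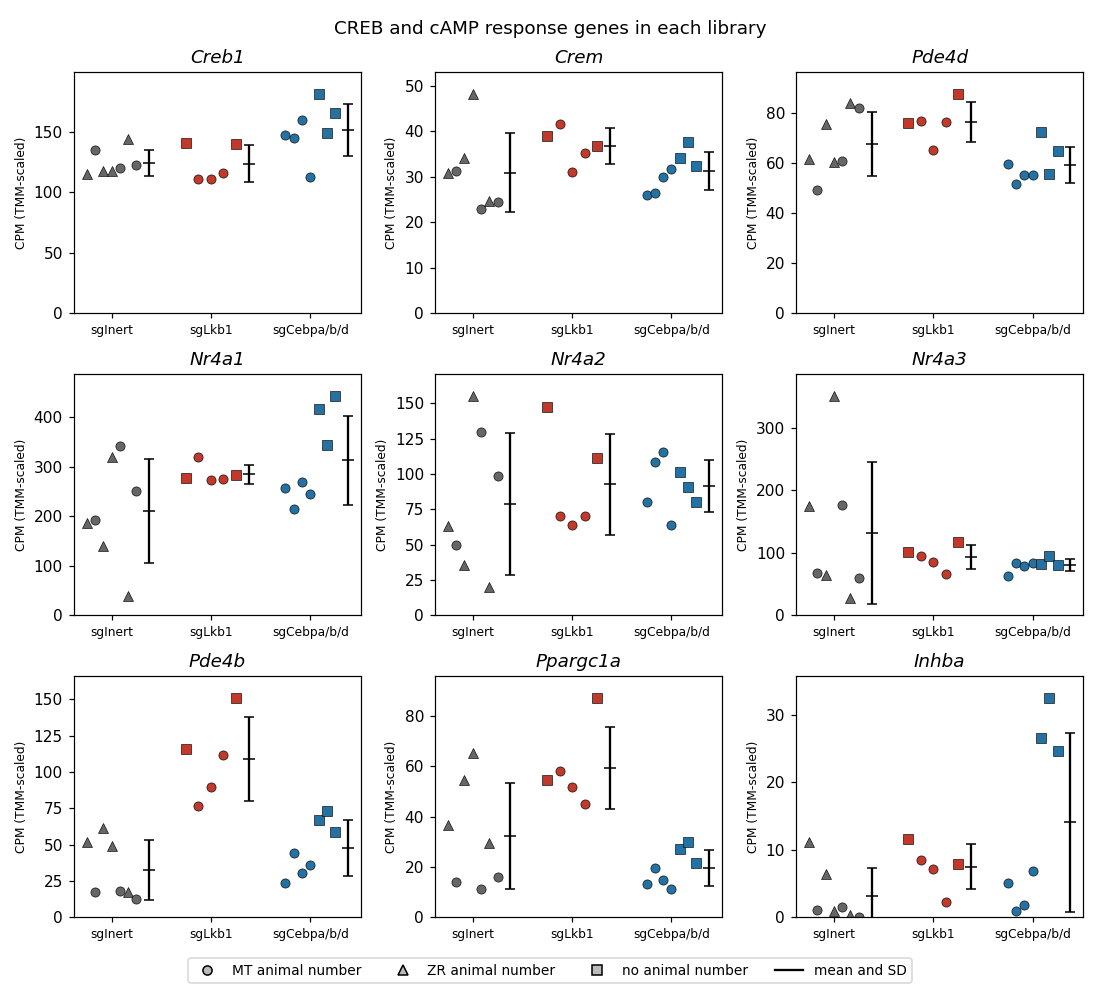
Level of each of the 9 genes in each of the 19 libraries (points; y axis, CPM scaled by TMM, from 0), by group (x axis), with circles for MT-numbered, triangles for ZR-numbered and squares for unnumbered titles and the mean ± SD at the right of each group (cut at 0 for *Inhba* in sgInert). The 5 sgLkb1 libraries lie at 76.2 CPM or more for *Pde4b*, above every library of the other groups, and the ZR-numbered sgInert libraries lie above the MT-numbered ones for *Ppargc1a*.

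Relative to sgInert tumors, 1 of the 9 genes was higher in *Lkb1*-targeted tumors and none was lower by edgeR's quasi-likelihood test at an adjusted p of 0.05, while 2.81% of all genes tested were higher and 2.97% lower. The median log2 fold change of the 9 genes was 0.25, beside -0.01 over all genes tested, and 7 of 9 were above 0. Relative to sgInert tumors, none of the 9 passed in C/ebp-targeted tumors, where 4.73% of all genes were higher and 5.36% lower. At an unadjusted p of 0.05 that count was 3 (*Creb1*, *Inhba* and *Ppargc1a*), DESeq2 called 1 (*Creb1*, higher), DESeq2 with length offsets 1 (*Ppargc1a*, lower) and limma 0. In C/ebp-targeted against *Lkb1*-targeted tumors, 2 of 9 were lower and none higher, with 3.12% of all genes lower and 2.83% higher. The comparisons share libraries, so their counts are not independent.

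*Pde4b* encodes a phosphodiesterase that hydrolyses cAMP. Its levels in the 5 sgLkb1 libraries were 76.2, 89.5, 111.7, 116 and 151 CPM. In the 7 sgInert libraries they ranged from 12.4 to 61.2 (median 18.2 CPM), and in the 7 sgCebpa/b/d libraries from 23.2 to 73.3 (median 44.4 CPM). Each sgLkb1 library was above every sgInert and every sgCebpa/b/d library, whereas sgInert and sgCebpa/b/d libraries overlapped. Complete separation of this kind was seen in 2.15% of all genes for sgLkb1 above sgInert and in 2.87% for sgCebpa/b/d below sgLkb1. The log2 fold change of sgLkb1 against sgInert was 1.76 (SE 0.36, approximate 95% interval 1.06 to 2.45, edgeR adjusted p = 0.00404), a 3.38-fold higher level. It stayed past the threshold in each of 14 other settings (adjusted p 2.79e-05 to 0.0372) and with each library left out (0.00138 to 0.0160).

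Against *Lkb1*-targeted tumors, *Pde4b* was lower in C/ebp-targeted tumors by 1.19 on the log2 scale (SE 0.35, edgeR adjusted p = 0.0470). With a library left out the log2 fold change was -1.32 to -1.04, and the call stood close to the threshold. It was lost when any of 9 libraries was left out (sgLkb1 replicates 1, 3, 4 and 5 and sgCebpa/b/d replicates 1, 2, 3, 4 and 7, adjusted p 0.0512 to 0.134) and when libraries of the same animal were summed (log2 fold change -1.07, adjusted p = 0.161) or the unnumbered libraries were removed (-1.45, adjusted p = 0.0974), and was held among MT-numbered libraries (-1.44, adjusted p = 6.21e-04) and among unnumbered ones (-1.02, adjusted p = 0.00764), where 3.3% and 2.15% of all genes were lower. The unnumbered fit set 3 male sgCebpa/b/d against 2 female sgLkb1 libraries, so sex and virus cannot be told apart in it. In C/ebp-targeted against sgInert tumors the *Pde4b* value was 0.57 (interval -0.08 to 1.22, adjusted p = 0.323). The sgInert libraries fell apart by title here: the 3 MT-numbered ones read 12.4, 17.3 and 18.2 CPM, and 3 of the 4 ZR-numbered ones 48.9 to 61.2 CPM with the fourth at 17.3. Among MT-numbered libraries alone, *Pde4b* was higher in both targeted groups, by 2.51 in sgLkb1 (SE 0.24, adjusted p = 2.79e-05) and by 1.07 in sgCebpa/b/d (SE 0.22, adjusted p = 0.00836), where 3.61% and 4.3% of all genes were higher. Fibroblast markers moved with this: their sum was 13.7 to 23.9 CPM in MT-numbered sgInert, 108 to 242 in sgLkb1 and 71.9 to 254 in sgCebpa/b/d libraries. The sum of the 4 mesothelial markers was also highest in sgLkb1. Over all libraries it was 0 to 3.45 CPM in sgInert, 6.90 to 21.1 in sgLkb1 and 0 to 4.57 in sgCebpa/b/d libraries. Most of that sum was *Msln*, at 6.58 to 17.2 CPM in sgLkb1, while *Upk3b* and *Wt1* stayed at or below 0.466 CPM in all 3 groups. *Lrrn4* had a median of 0 CPM in each group and reached 3.50 CPM in sgLkb1. The part of these cell types in the result was not tested. All 8 markers had counts in both targeted groups, and *Lum* was at 0 in the MT-numbered sgInert libraries.

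*Pde4d*, the other PDE4 gene of the set, spanned 49.2 to 83.9 CPM in sgInert (median 61.7), 65.2 to 87.7 in sgLkb1 (median 76.6) and 51.7 to 72.4 in sgCebpa/b/d libraries (median 55.5). The 3 groups overlapped. Its log2 fold changes were 0.18 (interval -0.07 to 0.43, edgeR adjusted p = 0.511), -0.19 (-0.42 to 0.04, adjusted p = 0.357) and -0.37 (-0.62 to -0.12, adjusted p = 0.0989) for sgLkb1 against sgInert, sgCebpa/b/d against sgInert and sgCebpa/b/d against sgLkb1. The last value passed the threshold in 4 of 15 other settings, at -0.51 (adjusted p = 0.00807) with sex as a covariate, and in 0 of 19 fits with a library left out.

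Of 16 cAMP phosphodiesterase genes listed, 13 were tested. In sgLkb1 against sgInert 2 rose, *Pde4b* and *Pde10a*, and none fell, with a median log2 fold change of 0.41 over the 13. *Pde10a*, whose product hydrolyses cAMP and cGMP, had 0 to 4 expected counts in each sgInert library, 153 to 522 in sgLkb1 libraries and 0 to 22 in sgCebpa/b/d libraries (edgeR adjusted p = 6.01e-07 for sgLkb1 and 0.0266 for sgCebpa/b/d against sgInert). The sgLkb1 call held in 19 of 19 fits with a library left out and 14 of 14 other settings. The sgCebpa/b/d call, on low counts, held in 15 of 19 and 8 of 13. A count of 0 in an sgInert library allowed at most 0.731 CPM, counting error only, and sgLkb1 libraries read 24.0 to 60.2 CPM. *Pde7b*, a phosphodiesterase specific to cAMP, fell in sgCebpa/b/d against sgInert: it read 238 to 387 CPM in sgInert, 313 to 389 in sgLkb1 and 88.3 to 151 in sgCebpa/b/d libraries, a log2 fold change of -1.39 (SE 0.12, adjusted p = 1.41e-07). Against *Lkb1*-targeted tumors 4 of the 13 fell and none rose: *Pde7b*, *Pde10a*, *Pde4b* and *Pde1c*, the last by 1.17 (SE 0.34, adjusted p = 0.0450), a call that held in 6 of 19 fits with a library left out and in 7 of 15 other settings.

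*Ppargc1a* encodes PGC-1alpha, a coactivator of genes for mitochondrial biogenesis. It read 45.2, 52.0, 54.5, 58.3 and 87.4 CPM in the 5 sgLkb1 libraries, 11.4 to 65.5 in sgInert (median 29.7) and 11.4 to 29.9 in sgCebpa/b/d libraries (median 19.7). Each sgCebpa/b/d library was below each sgLkb1 library, and sgInert libraries overlapped with both. Against *Lkb1*-targeted tumors it was lower in C/ebp-targeted tumors by 1.58 on the log2 scale (SE 0.36, interval -2.29 to -0.88, edgeR adjusted p = 0.00877), at 0.333 times the level. This held with each library left out and within both title classes that allowed it (-1.79, adjusted p = 9.32e-05 among MT-numbered and -1.45, adjusted p = 0.00748 among unnumbered libraries), and its adjusted p was 0.0515 with libraries of the same animal summed. The unnumbered libraries were 3 male sgCebpa/b/d and 2 female sgLkb1 libraries, so sex and virus cannot be told apart in that fit.

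Against sgInert, the *Ppargc1a* value depended on the title prefix. The 3 MT-numbered sgInert libraries read 11.4, 13.8 and 15.8 CPM and the 4 ZR-numbered ones 29.7, 36.6, 54.6 and 65.5 CPM, without overlap. With all libraries the log2 fold change of sgLkb1 against sgInert was 0.88 (SE 0.35, edgeR adjusted p = 0.166). It was 1.92 (SE 0.23, adjusted p = 1.21e-04) among MT-numbered libraries and 1.85 (SE 0.27, adjusted p = 2.45e-04) with the title prefix as a covariate, where 3.61% and 2.75% of all genes were higher. ZR titles were only in sgInert. Both fits therefore took the sgInert level from its MT-numbered libraries, and their values are not independent. For sgCebpa/b/d against sgInert the value was -0.70 (adjusted p = 0.212) with all libraries and 0.13 (adjusted p = 0.807) among MT-numbered ones. By DESeq2 with length offsets over all libraries, *Ppargc1a* was lower there (DESeq2 adjusted p = 0.0465). What the prefixes stand for is not given in the sources used here.

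Of 14 genes of the PGC-1 family and its partners, 12 were tested, and in sgLkb1 against sgInert none passed with all libraries (2 at an unadjusted p of 0.05, 0 by DESeq2 and 0 by limma). Relative to sgInert, 1 passed in C/ebp-targeted tumors, the estrogen-related receptor gene *Esrrg*, with 0 to 11 counts in sgInert and 2 to 54 in sgCebpa/b/d libraries (edgeR adjusted p = 0.0386, held in 10 of 19 fits with a library left out). Against *Lkb1*-targeted tumors only *Ppargc1a* itself passed among the 12 with all libraries.

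**Figure D2:**
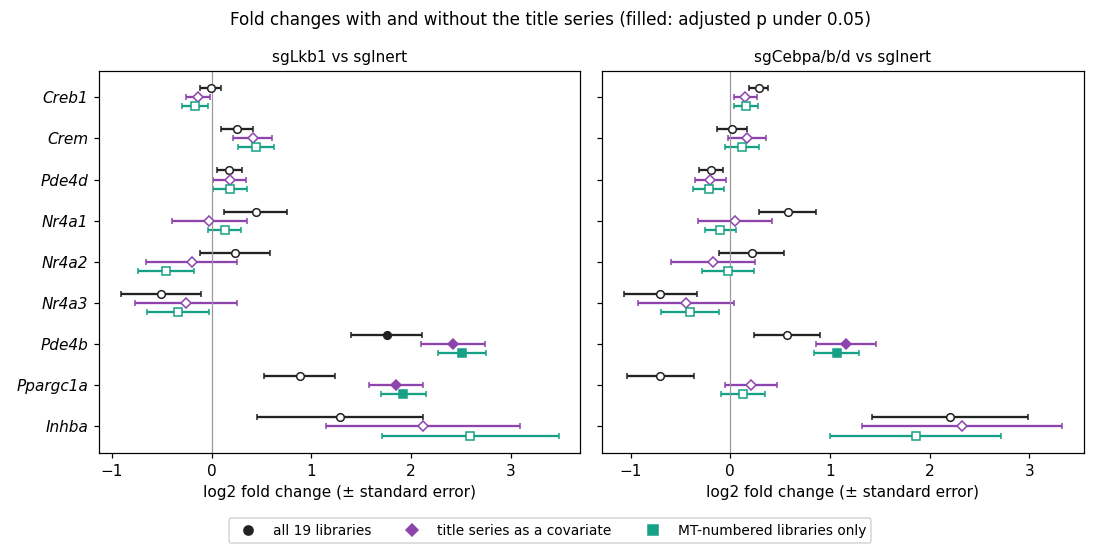
Log2 fold change against sgInert (x axis, ± SE) of each gene (y axis) with all 19 libraries (circles), with the title prefix as a covariate (diamonds) and among MT-numbered libraries only (squares), filled where the edgeR adjusted p was under 0.05. *Ppargc1a* moves from 0.88 to 1.92 in sgLkb1 tumors and *Pde4b* from 0.57 to 1.07 in C/ebp-targeted tumors, and both points become filled. Diamonds and squares both take the sgInert level from its MT-numbered libraries and are not independent.

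*Creb1*, the gene of CREB itself, read 115 to 144 CPM in sgInert (median 119.6), 110.6 to 140.3 in sgLkb1 (median 116) and 113 to 181 in sgCebpa/b/d libraries (median 149). The groups overlapped in each comparison. Its log2 fold change was -0.01 (interval -0.22 to 0.20, edgeR adjusted p = 0.973) in sgLkb1 and 0.28 (0.09 to 0.48, adjusted p = 0.0704) in sgCebpa/b/d against sgInert, and 0.29 (0.08 to 0.50, adjusted p = 0.122) between the targeted groups. *Crem* read 23.0 to 48.2, 31.1 to 41.5 and 26.1 to 37.7 CPM in the 3 groups, again with overlap, and its values were 0.25 (-0.06 to 0.57, adjusted p = 0.439), 0.02 (-0.27 to 0.31, adjusted p = 0.962) and -0.23 (-0.55 to 0.08, adjusted p = 0.481). Among the 8 genes of the CREB family, the CRTC coactivators and the acetyltransferases *Crebbp* and *Ep300*, none passed in any comparison. At an unadjusted p of 0.05 the counts were 0, 1 and 3 for sgLkb1 against sgInert, sgCebpa/b/d against sgInert and sgCebpa/b/d against sgLkb1, with 0, 1 and 0 by DESeq2 and 0 in each by limma. *Crtc2*, a coactivator that SIKs phosphorylate, read 13.4 to 18.6, 16.5 to 24.1 and 14.8 to 21.6 CPM.

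The orphan nuclear receptors of the *Nr4a* family are transcribed within minutes of a cAMP or stress signal. *Nr4a1* read 272, 275, 276, 283 and 319 CPM in sgLkb1 libraries, 38.7 to 341 (median 191.6) in sgInert and 215 to 443 (median 269.9) in sgCebpa/b/d libraries. The sgInert libraries overlapped with both targeted groups, and the 3 unnumbered sgCebpa/b/d libraries, at 343, 416 and 443 CPM, were above the 4 MT-numbered ones, at 215 to 269.9. The log2 fold changes of *Nr4a1* were 0.44 (interval -0.17 to 1.06, edgeR adjusted p = 0.502) in sgLkb1 and 0.58 (0.01 to 1.14, adjusted p = 0.237) in sgCebpa/b/d against sgInert, and 0.13 (adjusted p = 0.870) between the targeted groups. Among MT-numbered libraries the sgCebpa/b/d value was -0.10 (adjusted p = 0.795).

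*Nr4a2* read 19.8 to 155 CPM in sgInert (median 63.4), 63.7 to 147 in sgLkb1 (median 70.5) and 63.6 to 116 in sgCebpa/b/d libraries (median 90.9), with log2 fold changes of 0.23 (adjusted p = 0.804), 0.22 (adjusted p = 0.754) and -0.02 (edgeR adjusted p = 0.990). *Nr4a3* read 27.2 to 351 (median 67.6), 66.1 to 117.5 (median 93.9) and 61.9 to 93.9 CPM (median 82.0), with -0.51 (adjusted p = 0.555), -0.70 (adjusted p = 0.257) and -0.19 (edgeR adjusted p = 0.849). Neither gene separated any 2 groups, and the sgInert group alone held both the lowest and the highest library of each. The spread was unequal: the SD of log2 CPM of *Nr4a1*, *Nr4a2* and *Nr4a3* was 1.06, 1.06 and 1.24 over sgInert, 0.09, 0.52 and 0.31 over sgLkb1, and 0.40, 0.30 and 0.18 over sgCebpa/b/d libraries.

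*Nr4a1* varied with other immediate early genes from library to library. Over the 19 libraries Pearson's r of log2 CPM was 0.95 between *Nr4a1* and *Atf3*, 0.94 with *Egr1*, 0.88 with *Junb* and 0.86 with *Fos*. It was 0.81, 0.79, 0.73 and 0.71 without sgInert replicate 6, which held the lowest level of all 4 and of the 3 *Nr4a* genes. For *Nr4a2* r to these 4 genes was 0.55 to 0.65, and 0.16 to 0.23 without that library, so it rested on that library. *Nr4a3* had r of 0.14 to 0.47, and -0.42 to 0.0076 without it. These correlations are given as a description, since libraries share groups, animals and dissociation.

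*Fos*, a subunit of AP-1, rose in both targeted groups, from 184 to 1613 CPM in sgInert to 1659 to 2732 in sgLkb1 (log2 fold change 1.18, edgeR adjusted p = 0.0470) and 1608 to 3884 in sgCebpa/b/d libraries (1.52, adjusted p = 0.00364). The sgLkb1 call held in 8 of 19 fits with a library left out, and with title prefix as a covariate *Fos* gave 0.44 (adjusted p = 0.580) in sgLkb1 and 0.67 (adjusted p = 0.326) in sgCebpa/b/d tumors. *Egr1* and *Junb* rose in sgCebpa/b/d tumors, by 1.10 (adjusted p = 0.0374) and 1.13 (adjusted p = 0.0182), and their values in sgLkb1 tumors were 0.75 (adjusted p = 0.265) and 0.73 (adjusted p = 0.224). *Atf3* gave 0.64 (adjusted p = 0.373) and 0.55 (adjusted p = 0.356). Listed next were 20 immediate early and heat shock genes that tissue dissociation is known to raise. With all libraries 3 rose (*Dusp1*, *Egr2* and *Fos*) and 2 fell (*Hspa1b* and *Hspa1a*) in sgLkb1 against sgInert. Of all genes 2.81% were higher and 2.97% lower there. In sgCebpa/b/d against sgInert 10 of the 20 rose and none fell with all libraries, where 4.73% of all genes were higher and 5.36% lower. Among MT-numbered libraries 3 rose (*Fosb*, *Hspa1b* and *Hspa1a*) and none fell, and of these only *Fosb* was among the 10. *Fos* differed by title in both groups. It was 3486 to 3884 CPM in the unnumbered and 1608 to 2252 in the MT-numbered sgCebpa/b/d libraries. In sgInert it was 184 to 842 CPM in the ZR-numbered and 1286 to 1613 in the MT-numbered libraries. Cells were dissociated with enzymes at body temperature before sorting, and the part of that step in the *Nr4a* levels was not tested.

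**Figure D3:**
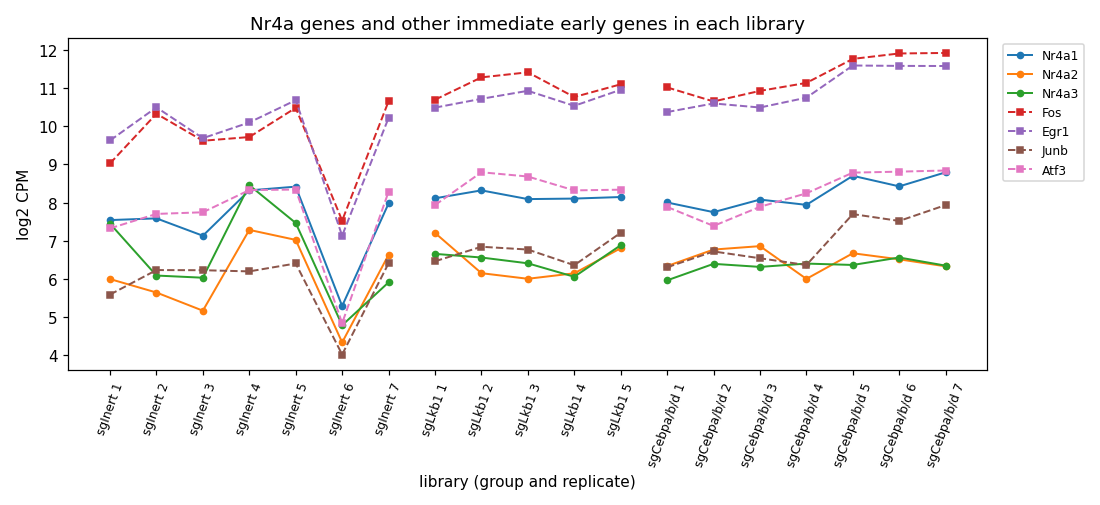
Log2 CPM (y axis) of the 3 *Nr4a* genes (solid lines) and of *Fos*, *Egr1*, *Junb* and *Atf3* (dashed lines) in each library (x axis, group and replicate number), where lines only join the points of a gene since replicates have no order. All 7 genes are lowest in sgInert replicate 6, and the 3 unnumbered sgCebpa/b/d libraries (5, 6 and 7) hold the highest *Nr4a1*, *Fos* and *Egr1*.

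*Inhba* encodes the beta A subunit of activin A, a secreted ligand of the TGF-beta family. Its counts were low, with 14 or fewer in 8 of the 19 libraries. Expected counts were 0, 2, 4, 6, 12, 24 and 59 in sgInert, 23 to 100 in sgLkb1 and 9 to 192 in sgCebpa/b/d libraries, and the count of 0 in sgInert replicate 7 allowed up to 0.731 CPM (counting error only). The 3 unnumbered sgCebpa/b/d libraries read 24.6, 26.5 and 32.5 CPM, above all other libraries, which reached 11.5 CPM at most. Relative to sgInert, C/ebp-targeted tumors gave a log2 fold change of 2.20 (SE 0.79, interval 0.66 to 3.75, edgeR adjusted p = 0.0804) and *Lkb1*-targeted tumors 1.29 (SE 0.83, interval -0.34 to 2.92, adjusted p = 0.449). Between the targeted groups it was 0.92 (SE 0.81, adjusted p = 0.604).

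The *Inhba* values moved with sex and title. With sex as a covariate sgLkb1 gave 3.02 (adjusted p = 0.0130) and sgCebpa/b/d 2.18 (edgeR adjusted p = 0.0228), where 4.85% and 5.76% of all genes were higher, and without the 5 unnumbered libraries they were 0.96 (adjusted p = 0.659) and 0.22 (adjusted p = 0.935). Endothelial markers, which summed to 171 to 255 CPM in the unnumbered and 14.5 to 51.0 CPM in the MT-numbered sgCebpa/b/d libraries, and immune markers, at 59.0 to 72.8 and 4.71 to 9.70 CPM, moved with *Inhba* within that group. The unnumbered sgLkb1 libraries had endothelial sums of 101 to 193 and immune sums of 28.7 to 64.6 CPM, with *Inhba* at 7.86 and 11.5 CPM. *Inhba* was 2.26 to 8.47 CPM in the MT-numbered sgLkb1 libraries. The part of these cell types in the result was not tested. *Adgre1*, *Marco* and *Cd3e* were among the markers at 0 in the MT-numbered sgCebpa/b/d libraries. Of 12 genes of activins, their inhibitors and receptors, 10 were tested. None passed in sgLkb1 against sgInert (0 at an unadjusted p of 0.05, 0 by DESeq2, 1 by limma) or between the targeted groups (2, 0 and 1), and in sgCebpa/b/d against sgInert the pseudoreceptor gene *Bambi* fell by 0.59 on the log2 scale (SE 0.14, adjusted p = 0.00796).

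**Figure D4:**
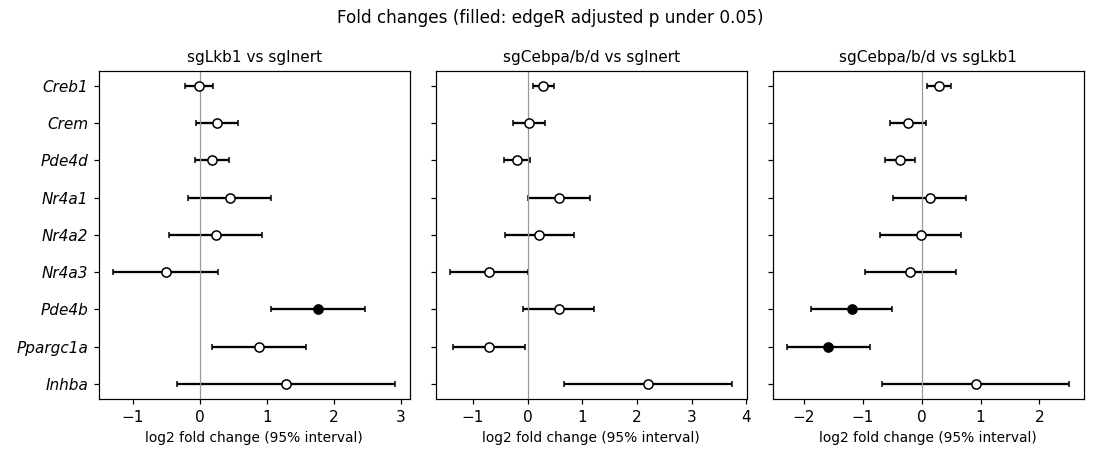
Log2 fold change with its approximate 95% interval (x axis) of each gene (y axis) in the 3 comparisons over all 19 libraries, filled where the edgeR adjusted p was under 0.05. The filled points are *Pde4b* at 1.76 in sgLkb1 against sgInert, and *Pde4b* at -1.19 and *Ppargc1a* at -1.58 in sgCebpa/b/d against sgLkb1.

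Other CREB and CRTC target genes split in direction. Of 25 listed, 17 were tested, and in sgLkb1 against sgInert 3 rose and 1 fell. Among MT-numbered libraries 6 rose and 1 fell there, where 3.61% of all genes were higher (2.81% with all libraries). *Sik1*, a CREB target that encodes a kinase acting against CRTC, read 25.4 to 68.7 CPM in sgInert, 77.4 to 131 in sgLkb1 and 42.5 to 93.5 in sgCebpa/b/d libraries, and each sgLkb1 library was above each sgInert library. Its log2 fold change was 1.38 in sgLkb1 (SE 0.24, edgeR adjusted p = 8.79e-04) and 0.70 in sgCebpa/b/d (SE 0.22, adjusted p = 0.0457) against sgInert, and the second call held in 7 of 19 fits with a library left out and in 8 of 14 other settings. *Pam*, which amidates peptide hormones, rose in both targeted groups, by 1.34 (adjusted p = 3.54e-06) and 1.09 (adjusted p = 7.29e-06), and *Dusp1*, a MAP kinase phosphatase, by 0.91 (adjusted p = 0.0406, held in 12 of 19 fits with a library left out) and 1.15 (adjusted p = 0.00319, held in 19 of 19). The *Dusp1* calls held in 11 and 10 of 14 other settings. Both were lost with title prefix as a covariate (edgeR adjusted p = 0.548 and 0.328). *Dusp1* was also among the listed genes that tissue dissociation is known to raise.

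*Cited2*, which encodes a partner of CBP and p300, fell by 0.64 (edgeR adjusted p = 0.0189) in sgLkb1 and 0.50 (adjusted p = 0.0284) in sgCebpa/b/d tumors. Of the 17, 4 rose and 3 fell in sgCebpa/b/d against sgInert (4 and 1 among MT-numbered libraries). *Fosb* rose by 1.50 (adjusted p = 0.00648), whereas *Ptgs2*, the gene of inducible cyclooxygenase, fell by 2.08 (SE 0.36, adjusted p = 4.71e-04) and *Rgs16*, a G protein regulator, by 1.54 (adjusted p = 0.0157). Between the targeted groups only *Avpi1* passed among the 17, lower by 0.45 (adjusted p = 0.0314, held in 14 of 19 fits with a library left out). The other SIK genes gave 0.93 (*Sik2*, adjusted p = 0.109) and 0.04 (*Sik3*, adjusted p = 0.925) in sgLkb1, and 1.12 (*Sik2*, adjusted p = 0.0208) and -0.02 (*Sik3*, edgeR adjusted p = 0.962) in sgCebpa/b/d against sgInert.

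**Figure D5:**
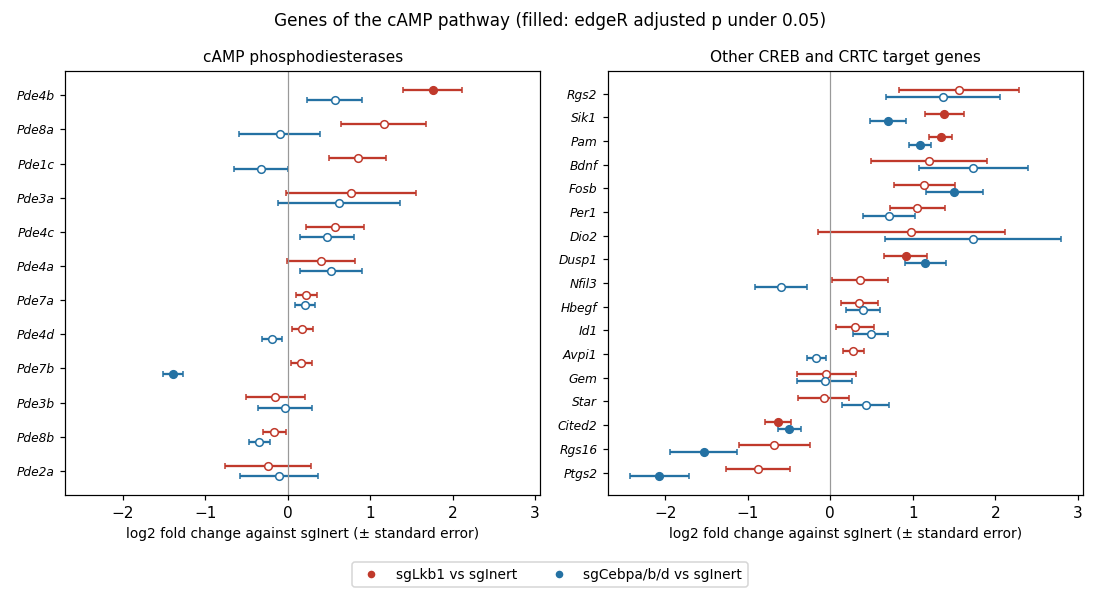
Log2 fold change against sgInert (x axis, ± SE) of the tested cAMP phosphodiesterase genes (left, without *Pde10a*, whose sgInert counts were 0 to 4) and of the other CREB and CRTC target genes (right) in sgLkb1 (red) and sgCebpa/b/d (blue) tumors, filled where the edgeR adjusted p was under 0.05. *Pde4b* is filled in red only, at 1.76, and *Pde7b* in blue only, at -1.39, while *Pam*, *Sik1*, *Dusp1* and *Cited2* are filled in both colors.

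Genes that make cAMP or carry its signal to CREB moved in different directions. Of 22 genes of G proteins, adenylyl cyclases and protein kinase A, 18 were tested. In sgLkb1 against sgInert 2 rose and 2 fell with all libraries and none passed among MT-numbered ones (7 at an unadjusted p of 0.05 in both). The cyclase gene *Adcy7* fell by 0.46 (edgeR adjusted p = 0.0268) and *Gnai1*, an inhibitory G protein subunit gene, by 0.83 (adjusted p = 0.0332), and both calls held in 13 of 19 fits with a library left out. *Adcy3* and *Adcy4* rose from low counts, 1 to 6 to 11 to 39 for *Adcy3* (adjusted p = 0.0214) and 0 to 4 to 9 to 59 for *Adcy4* (adjusted p = 0.0109). *Adcy4* also rose in sgCebpa/b/d against sgInert, in 19 of 19 fits with a library left out and 7 of 12 other settings. Endothelial marker sums reached 49.0 CPM in sgInert, 193 in sgLkb1 and 255 in sgCebpa/b/d libraries. The part of endothelial cells in these cyclase values was not tested. *Pkib*, an inhibitor of protein kinase A, rose in sgCebpa/b/d tumors: it read 19.9 to 76.5 CPM in sgInert, 17.7 to 35.5 in sgLkb1 and 76.7 to 149 in sgCebpa/b/d libraries, a log2 fold change of 1.24 (SE 0.24, adjusted p = 0.00153) against sgInert and 2.05 (SE 0.28, adjusted p = 6.19e-05) against sgLkb1. Between the targeted groups *Gnai1* and *Adcy6* were also higher in sgCebpa/b/d tumors, by 1.37 (adjusted p = 6.78e-04) and 0.61 (adjusted p = 0.0184), and the regulatory subunit gene *Prkar2a* was lower by 0.50 (adjusted p = 0.0145).

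The genes whose log2 CPM followed *Pde4b* most closely over the 19 libraries were *Clip4* (Pearson's r 0.93), *Sik1* (0.90) and *Kcnn3* (0.89). Those closest to *Ppargc1a* were *Ndrg1* (0.88), *Lrrc58* (0.86) and *Nebl* (0.86). *Pde4b* and *Ppargc1a* themselves had an r of 0.78, and *Crem* an r of 0.71 to each. These are descriptions over libraries that share groups and title prefixes.

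The abundance-weighted transcript length, which moves when a gene switches between its short and long transcripts, gave 25 gene and comparison pairs with at least 10 expected counts in 4 or more libraries of both groups. None passed an exact two-sided permutation test after adjustment (smallest adjusted p = 0.960), and the smallest raw exact permutation p was 0.0619, for *Nr4a3* in sgCebpa/b/d (4790 ± 279 bases) against sgLkb1 libraries (5078 ± 119 bases). For *Pde4b* the mean length was 3750 ± 244 bases (n = 7) in sgInert, 3839 ± 36.9 (n = 5) in sgLkb1 and 3795 ± 233 (n = 7) in sgCebpa/b/d libraries.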

How the data were processed

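Libraries were prepared from sorted neoplastic cells with a Trio RNA-Seq kit. Per the labels and the study's methods, the authors aligned reads with STAR 2.6.1d to mm10 and estimated expression with RSEM 1.2.30. The deposited files give, for each library, expected counts, TPM and transcript lengths per gene, computed by the authors with RSEM, and the authors tested them with DESeq2 1.26.0. No strand setting is given in the sources used here. Trio libraries are amplified, so the upper limits given for counts of 0 cover counting error only.

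Expected counts were rounded and tested with edgeR 4.0.16 (R 4.3.3): filterByExpr (minimum count 10, total 15), TMM, 1 quasi-likelihood model of all 19 libraries, and Benjamini-Hochberg adjustment over 13986 genes at 0.05. CPM used TMM-scaled totals, log2 CPM a prior count of 2. Alternatives used DESeq2 1.42.0 and limma 3.58.1 on log2(TPM + 1). Intervals are the estimate ± a normal quantile times its SE. Scripts were tested on simulated data. Replicates differed by more than counting noise in all 52 pairs within groups. The members and gene lists were chosen with earlier results of these data known. Named genes were the 9 members, *Stk11*, the SIK genes, *Fos*, *Junb*, *Egr1*, *Atf3*, at most the 5 genes of smallest p past the threshold per list and comparison, and the 3 genes most correlated with a member that passed. *Crtc2*, *Sftpc* and the single cell type markers named were added after their values were seen. A further allele that all groups shared is not reported here.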

Additional observations from a re-analysis of the deposited data

Results flagged for a closer look

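Of 27 pairs of a gene and a group, 3 had a library far from the rest of its group by Dixon's ratio of gap to range, which chance alone gives in about 1 in 20 groups. *Nr4a1* in sgInert replicate 6 was the lowest of its group, at a log2 CPM of 5.29 (38.7 CPM, 215 expected counts). *Nr4a1* in sgLkb1 replicate 2 was the highest of its group, at a log2 CPM of 8.32 (319.0 CPM, 2035 expected counts), where the other 4 libraries lay between 272 and 283 CPM. *Nr4a3* in sgCebpa/b/d replicate 1 was the lowest of its group, at a log2 CPM of 5.96 (61.9 CPM, 171 expected counts).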

How the results depend on the processing

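Among the 9 genes, the count past the threshold in sgLkb1 against sgInert was 1 with all libraries and with each left out (1 to 1), and 2 with sex or title prefix as a covariate, among female and among MT-numbered libraries. In sgCebpa/b/d against sgInert it was 0 (0 to 1 with a library left out), 2 with sex as a covariate, and 1 with title prefix as a covariate, among female, among MT-numbered libraries, by DESeq2 and by DESeq2 with length offsets. In sgCebpa/b/d against sgLkb1 it was 2 (1 to 2 with a library left out), 1 without the unnumbered libraries, 0 with libraries of an animal summed, and 3 with sex as a covariate, among female libraries, with only the 2 groups fitted and by limma (*Pde4d* added) and among unnumbered libraries (*Inhba* added). Of all genes, 4.85% were higher in sgLkb1 against sgInert with sex, 2.75% with title prefix and 3.61% among MT-numbered libraries (2.81% with all). For sgCebpa/b/d against sgInert these shares were 5.76% with sex and 4.3% among MT-numbered libraries (4.73% with all). Among unnumbered libraries 2.15% were lower in sgCebpa/b/d against sgLkb1 (3.12% with all). Apart from limma, below, the other settings have no share beside their counts. The removal of the unnumbered libraries and their separate fit were chosen after seeing the data. In that separate fit all sgCebpa/b/d libraries were male and all sgLkb1 libraries female. The limma scale shifted the median of all genes by 0.18, 0.03 and -0.15 in the 3 comparisons and split calls 783 higher to 148 lower, 531 to 512 and 162 to 805. Low depth limits *Inhba* most, with 0 to 59 counts in sgInert. The cause of the changes of sign below was not tested.

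Replicate numbers did not pair libraries (r of deviations -0.147 to 0.232 over 17 pairs, 2 over 0.1). With the replicate block, the count in sgCebpa/b/d against sgLkb1 was 1, *Pde4b* there being -1.09 (adjusted p = 0.193), *Creb1* in sgLkb1 against sgInert was 0.0172, and *Nr4a2* and *Nr4a3* in sgCebpa/b/d against sgLkb1 were 0.20 and 0.0396.

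In sgLkb1 against sgInert, the log2 fold change of *Creb1* turned to 0.0236 with no filter, 0.0559 with sex, 0.0315 with animals summed, 0.0696 by DESeq2 with length offsets and 0.27 by limma (-0.0566 to 0.0441 with a library left out). *Nr4a1* turned to -0.0224 with title prefix and -0.0032 among females. *Nr4a2* turned to -0.20 with title prefix, -0.27 among females, -0.45 among MT-numbered and -0.21 without unnumbered libraries, and *Nr4a3* to 0.0700 by limma. *Hspa1b* and *Hspa1a* turned to 0.15 and 0.35 with title prefix and to 0.23 and 0.53 among MT-numbered libraries.

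In sgCebpa/b/d against sgInert, *Crem* turned to -0.25 among females and -0.11 without unnumbered libraries (-0.0429 to 0.16 with a library left out). *Nr4a1* turned to -0.22 among females and -0.10 among MT-numbered libraries, *Atf3* to -0.28 and -0.27, and *Nr4a2* to -0.28 and -0.0178, with -0.17 under title prefix. *Ppargc1a* turned to 0.21 with title prefix and 0.13 among MT-numbered libraries.

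In sgCebpa/b/d against sgLkb1, *Nr4a1* turned to -0.21 among females, -0.23 among MT-numbered, -0.23 without unnumbered libraries and -0.12 by limma. *Nr4a2* turned to 0.23 with sex, 0.0309 with title prefix, 0.44 among MT-numbered and 0.43 without unnumbered libraries (-0.13 to 0.20 with a library left out), and *Nr4a3* to 0.0931 with sex. *Inhba* turned to -0.84 with sex, -1.08 among females, -0.74 among MT-numbered and -0.74 without unnumbered libraries.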

Other observations

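The inducible heat shock genes *Hspa1a* and *Hspa1b* split the sgInert libraries by title prefix, as *Ppargc1a* did. *Hspa1b* read 885 to 1508 CPM in the 4 ZR-numbered and 64.8 to 150 CPM in the 3 MT-numbered sgInert libraries, and 87.0 to 168 CPM in the 5 sgLkb1 libraries. With all libraries it fell in sgLkb1 against sgInert by 2.35 on the log2 scale (edgeR adjusted p = 0.0246, held in 14 of 19 fits with a library left out), while among MT-numbered libraries the value was 0.23. *Hspa1a* read 398 to 852, 45.8 to 74.7 and 48.6 to 124 CPM in the same libraries.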
